A study of Populus trichocarpa with 45 samples.

Results

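The very short genes described here are gene models of black cottonwood, Populus trichocarpa, whose span from start to end is at most 400 bases. They were chosen on their own readout. A gene had to be above 0 TPM (transcript abundance relative to a fixed sum over the genes of a library) in at least 3 of 45 leaf libraries, and its deviations of log2(TPM + 1) from branch means could not correlate above 0.5 (Pearson's r) with those of PtStettler14.13G139500. Of the 34700 genes in the files, 1119 have such a span, and 846 of these passed the detection limit. The correlation limit left out 103, so 743 genes remained. A further 212 short genes were at 0 in every library and 61 were above 0 in 1 or 2 libraries.

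The libraries are strand-specific mRNA sequencing of leaves of wild, untreated trees. Each of trees 13, 14 and 4 gave 5 branches, and each branch gave 3 libraries. By the study's text trees 13 and 14 are stems of 1 individual and tree 4 is another tree, while GEO's growth note describes only 1 wild tree. Libraries of a branch are technical replicates by the study's Methods, although its Results use the word biological. P-values for trees therefore measure the spread between branches of a tree, with 1 tree or stem on each side, not the spread between individuals.

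Short gene models in plants include small secreted and signalling peptides, small ribosomal and mitochondrial proteins, metallothionein-like proteins, and fragments of organelle DNA or of longer genes. The files pair identifiers with no names. No role is therefore given to any gene below, and the tissue was not checked against leaf markers. Identifiers carry the prefix PtStettler14., which is left out from here on, and coordinates are those of the Stettler assembly. Its sequence was not used here, so no sequence is shown.

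Most of these genes were weakly expressed, and a few were among the strongly expressed genes of the leaf. The median over the 743 genes of the mean TPM was 0.361, with an interquartile range of 0.0530 to 5.19. It was 4.55 over the 31469 genes of any span above 0 in at least 3 libraries. A mean of at least 1 TPM was reached by 295 very short genes (39.7%), against 71.1% of all detected genes. At the top the shares were close, since 38 (5.11%) had a mean of at least 100 TPM, against 4.87% of all detected genes. The closeness depends on the correlation limit, which was not applied to all detected genes. That limit left out a further 24 short genes of this level, 23.3% of the 103 left out. These 38 genes held 81.5% of the summed TPM of the very short genes, and the 448 genes below 1 TPM held 0.347%.

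The most abundant was 13G122700, a 291-base gene on chromosome 13 (14798267 to 14798557, plus strand). Its TPM ran from 1548 to 7693 over the 45 libraries, with a median of 4000. The next was 06G129100, 366 bases on chromosome 6 (12391629 to 12391994, minus strand), with 1867 to 4733 TPM and a median of 3905. These genes made up 33.0% of the summed TPM of the very short genes, and their ranges overlapped. 06G129100 lies within 06G129000, a gene on the same strand with a mean of 83.6 TPM whose log2(TPM + 1) followed it with r = 0.913 over the 45 libraries. How reads were divided between these overlapping models is uncertain.

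The third was 08G143700, 370 bases on chromosome 8 (10702562 to 10702931, minus strand), with 194 to 2606 TPM and a median of 874. The medians of the others in the 10 most abundant were 828 for 18G059200, 723 for 18G013100, 585 for 01G351300, 551 for 04G082900, 539 for 06G163100, 483 for 05G002100 and 474 for 11G099800. The last of these spans only 108 bases. Neighbours in this order from 01G351300 to 11G099800 differed by less than their range over libraries, for example 316 to 815 TPM for 01G351300 and 234 to 638 TPM for 11G099800.

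Level did not fall steadily with span, as the plot of level against span shows. The median of the mean TPM was 0.755 in the 118 genes of up to 200 bases, 0.839 in the 258 genes over 200 and up to 300 bases and 0.185 in the 367 genes over 300 bases. The shortest, 13G079500 on chromosome 13 (7905564 to 7905647, plus strand), spans 84 bases and had a median of 0.701 TPM, from 0 to 2.19. 06G065200 also spans 84 bases and was above 0 in 11 libraries, with a highest value of 0.582 TPM. 06G157700, at 93 bases, was above 0 in every library, from 0.669 to 5.81 TPM.

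**Figure D1:**
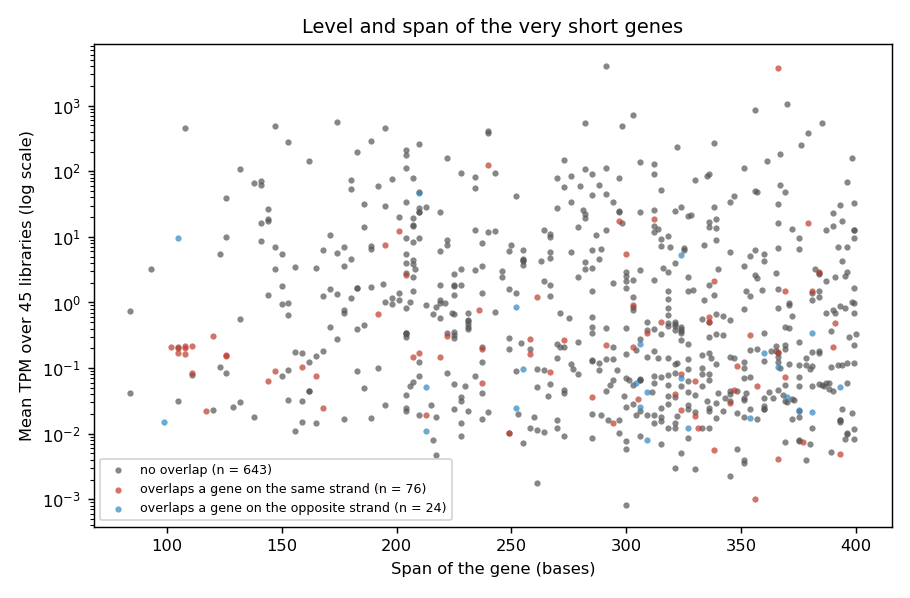
Mean TPM over 45 libraries (log scale) against the span in bases of the 743 very short genes, coloured by overlap with another annotated gene. Genes above 1000 TPM number 3, while 448 genes lie below 1 TPM at spans across the whole range.

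A span that is a multiple of 3 was common. It was found in 618 of the 743 genes (83.2%), against 35.4% of all detected genes, and in 117 of the 118 genes of up to 200 bases. Such a span is what a model of a single coding exon without untranslated ends would have, although the exon structure was not used here. The median level was 0.354 TPM where the span was a multiple of 3 and 0.408 TPM in the 125 other genes.

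Overlap with another gene was found for 100 of the 743 genes (13.5%). Of these, 76 overlapped a gene on the same strand (10.2%, against 3.48% of all detected genes) and 24 overlapped only a gene on the opposite strand, and 80 lay wholly within the other gene. The median level was 0.171 TPM with a same-strand overlap, 0.0514 TPM with an opposite-strand overlap and 0.513 TPM with none. The library kit keeps strand, but the study's Methods name no strand option among the changes from default settings in alignment and estimation. The division of reads between overlapping genes is therefore uncertain.

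Some overlapping genes were above 0 in every library at less than 1 fragment. Fragments were estimated from FPKM (fragments per kilobase relative to the library total), span and recovered depth. Of the 76 genes with a same-strand overlap, 43 were above 0 in all 45 libraries, and 18 of these had a mean of under 1 estimated fragment per library, between 0.00673 and 0.849. Among the 643 genes without overlap the same was true of 1. An example is 09G012700, of 108 bases, with 0.123 to 0.351 TPM over the 45 libraries and a mean of 0.430 estimated fragments. It lies within 09G012600, which had a mean of 8.94 TPM. A TPM above 0 in these genes thus stands for an estimated part of a fragment.

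The genes lay on all chromosomes. They numbered from 21 on chromosome 15 to 80 on chromosome 1, which is 1.64% of the genes of chromosome 15 and 1.96% of those of chromosome 1. The highest share was 2.90% on chromosome 8, and 2 of the genes lay on scaffold_120. The median distance to the nearest other gene was 1485 bases, against 1799 bases for all detected genes.

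Depth and composition varied between the libraries. The recovered depth ran from 11870000 to 35940000 fragments, with medians of 21010000 in tree 13, 23720000 in tree 14 and 31280000 in tree 4, and 14.1 replicate 3 was the shallowest. The 103 short genes left out by correlation held 0.539% to 22.3% of the TPM of a library. The very short genes that remained held 1.32% to 3.14%, with a median of 2.36%. Over branches their share was 2.69% ± 0.116 (SD, n = 5) in tree 13, 2.23% ± 0.119 in tree 14 and 2.14% ± 0.200 in tree 4. As TPM sums to a fixed total, a larger share of the left-out genes lowers all others. Levels for the comparisons below were therefore divided by median-of-ratios factors and are called scaled TPM.

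Detection of the very short genes followed depth. Of the 743, 344 (46.3%) were above 0 in all 45 libraries, against 79.5% of all detected genes. Another 126 (17.0%) were above 0 in 3 to 9 libraries, against 5.01% of all detected genes. The median over the very short genes of the mean estimated fragments was 2.12 per library, against 313 over all detected genes. Span, which includes any introns, stood for transcript length. At a median span of 3108 bases over all detected genes, the 313 can therefore be too high and is not directly comparable. A total of 312 very short genes had a mean below 1. A gene listed at 0 was thus not detected at this depth, which does not show that it is absent.

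The number above 0 in a library was 494 to 555 in tree 13, with a median of 525. Tree 14 had 457 to 549, with a median of 524, and 516 to 572 in tree 4, with a median of 554. Tree 4 lay highest and overlapped both other trees, and the lowest value was that of 14.1 replicate 3. Branch means were 523 ± 13.5 (SD, n = 5), 520 ± 13.3 and 553 ± 9.27 in trees 13, 14 and 4. Over the 45 libraries the number correlated with log2 depth at r = 0.865. Within trees 13, 14 and 4 the correlation was 0.731, 0.928 and 0.795 over 15 libraries each. These values are descriptions, and libraries of a branch share their source.

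The excess of tree 4 over the mean of the other trees was 31.5 genes as sequenced. It was 7.93 genes where detection meant at least 1 TPM, and 4.29 genes for the numbers expected at the lowest depth, which were 418, 419 and 423 in trees 13, 14 and 4. The library that has this depth, 14.1 replicate 3, was not thinned. Its 457 genes above 0 are its observed count, in which a part of a fragment counts in full. In the other 44 libraries a part of a fragment counted for less, and 403 to 435 genes were expected. The 457 is therefore not comparable with these numbers. Without 14.1 replicate 3 the expected number in tree 14 was 416 and the excess of tree 4 was 5.74 genes, a value added after seeing the data. The plot of detection against depth shows these numbers. Longer genes moved the same way, with 90.7%, 90.4% and 92.2% above 0 in trees 13, 14 and 4.

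**Figure D2:**
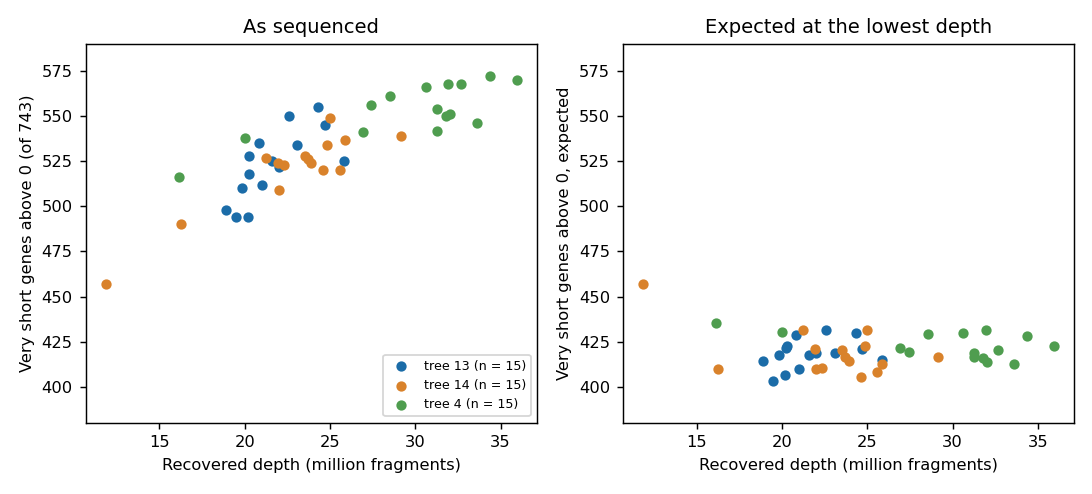
Number of the 743 very short genes above 0 TPM in each of 45 libraries against recovered depth (fragments), as sequenced (left) and thinned in expectation to the lowest depth (right), coloured by tree. Numbers run from 457 to 572 on the left, rising with depth. On the right the shallowest library was not thinned and keeps its observed 457, which is not comparable with the others, at 403 to 435.

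A total of 1 very short gene was listed at 0 in all 15 libraries of a tree while above 0 in at least 10 of another. 09G014100, 389 bases on chromosome 9 (3140445 to 3140833, minus strand), was listed at 0 throughout tree 13, was above 0 in 5 libraries of tree 14 and in 11 of tree 4. Its scaled TPM in tree 4 was 0.200 ± 0.0717 (SD of 5 branch means), from 0 to 0.559 over libraries. The estimated fragments summed to 9.45 in the 15 libraries of tree 14 and to 28.8 in those of tree 4. The gene was below the filter for testing, and 4 of the 31469 detected genes showed this pattern for tree 13.

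Equal spans were examined because gene copies of the same length may share reads. Of 2273 pairs of very short genes with exactly the same span, 4 had r above 0.9 of log2(TPM + 1) over the 45 libraries (0.176%). Among 273380 pairs of unequal span, 51 did (0.0187%). The 4 pairs held 8 genes, none of which overlapped another gene, and all their spans were multiples of 3. No equal-span gene outside the 743 joined them. At r above 0.8 there were 17 such genes. Sequences were not compared, so none of these pairs is shown to consist of copies.

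The most abundant pair was 03G134700 on chromosome 3 (17639732 to 17639938, plus strand) and 01G073500 on chromosome 1 (6586162 to 6586368, minus strand), both of 207 bases. 03G134700 had 21 to 142 TPM, with a median of 71.1, and 01G073500 had 5.91 to 25.3 TPM, with a median of 15.3. They varied together with r = 0.951, and with r = 0.838 in deviations from branch means. The level of 01G073500 was 0.150 to 0.309 of that of 03G134700, so these genes were not equal in any library. In scaled TPM both stood lowest in tree 4, at 40.7 ± 13 against 109 ± 11.6 in tree 13 and 85.6 ± 25 in tree 14 for 03G134700 (SD, n = 5 branches).

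The other pairs lay near each other on 1 chromosome and were close in level over most libraries. 04G165500 and 04G165600 (183 bases each, 6869 bases from start to start on the plus strand of chromosome 4) had medians of 1.60 and 1.67 TPM and r = 0.990, and the first was 0.873 to 1.0 of the other. 10G010900 and 10G011200 (231 bases, minus strand of chromosome 10) had means of 0.473 and 0.513 TPM and r = 0.993, and the first was 0.487 to 1.21 of the other, with a median of 0.932. 17G035900 and 17G036300 (351 bases, plus strand of chromosome 17) were above 0 in the same 5 libraries, at most 0.0858 TPM, where the first was 1.0 to 3.0 times the other. In these 3 pairs the level of each single gene is uncertain, because reads that fit both may have been divided between them.

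**Figure D3:**
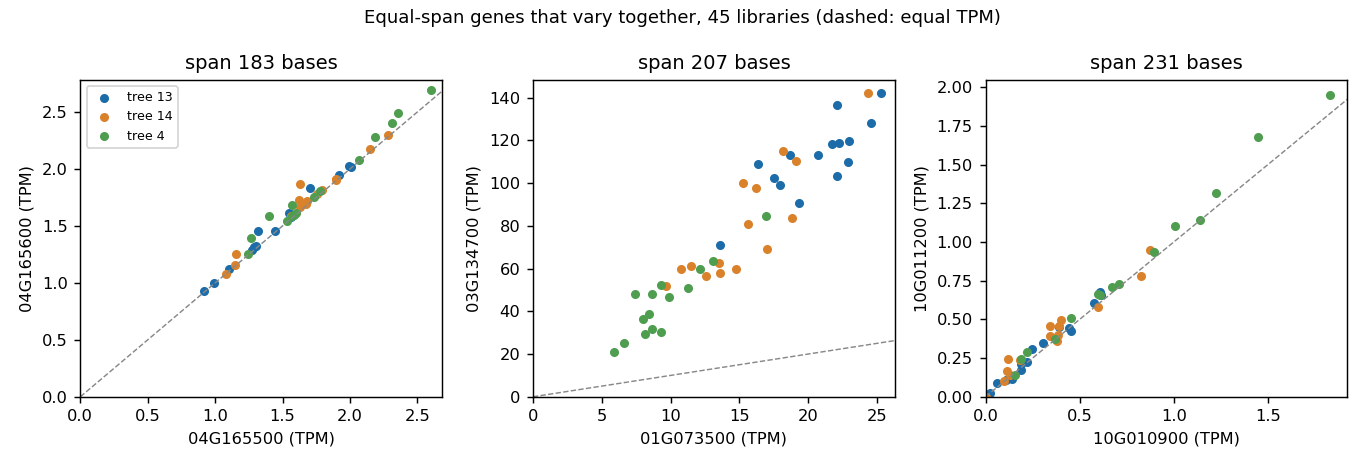
TPM of 3 equal-span pairs of very short genes in each of 45 libraries, coloured by tree, with a dashed line where both are equal. The 183-base and 231-base pairs lie near the line (r = 0.990 and 0.993), and the 207-base pair lies far from it (r = 0.951).

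Tree 4 was compared with trees 13 and 14 to ask which of these genes differ between trees. By the study's text the Stettler assembly was made from a branch of tree 14, so reads of tree 4 were aligned to the assembly of another tree. Whether this affected the levels in tree 4 was not tested. Among genes whose branch means were separate, the largest changes were those of 08G060900 and 04G127600, which were higher in tree 4, and 09G095900, 14G161100, 01G208300, 14G077900 and 04G127800, which were lower. Of the 743 genes, 362 had at least 1 TPM in at least 3 libraries and were tested among 24009 genes. limma on the 15 branch means called 123 (34.0%) with adjusted p up to 0.05, against 36.4% of all genes tested, so the share was near the background. Of these, 45 were higher (12.4%, against 17.7% of all genes) and 78 were lower (21.5%, against 18.7%). Unscaled TPM gave 72 higher and 42 lower genes, and the median of all genes then moved by 0.11 on the log2 scale. The direction of the balance thus depended on the scaling. Counts of all genes by direction with unscaled TPM are not given here, so the turn is not shown to be particular to very short genes. The counts by direction include genes with a mean under 1 TPM, which could pass the filter through the tree where they were high. Branch means of tree 4 did not overlap those of the other trees for 30 of the 362 genes (8.29%, against 10.6% of all genes).

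A change of at least 1 on the log2 scale was called for 15 genes (4.14%, against 1.33% of all genes tested), 3 higher (0.829%, against 0.362%) and 12 lower (3.31%, against 0.966%). The median absolute change was 0.17 over the very short genes and 0.12 over all genes tested. These changes are on the scale of log2(scaled TPM + 1), which understates changes of weakly expressed genes. In whole leaves, fewer cells of a type and less RNA per cell cannot be told apart.

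08G060900 spans 369 bases on chromosome 8 (4129520 to 4129888, plus strand). Its scaled TPM over 15 libraries was 10.3 to 24.6 in tree 13 (median 15.2), 27.1 to 50.7 in tree 14 (median 39.0) and 62.1 to 106 in tree 4 (median 88.6). No library of a tree overlapped those of another. Branch means were 16.3 ± 2.34, 37.6 ± 6.82 and 85.9 ± 11.4 (SD, n = 5), and limma gave tree 4 a log2 difference of 1.76 ± 0.11 (SE) with adjusted p = 2.66e-08.

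04G127600 and 04G127800 lie on the plus strand of chromosome 4 (16567280 to 16567525 and 16572215 to 16572418), 4689 bases apart with 1 gene between them, and moved in opposite directions. Scaled TPM of 04G127600 was 0 to 1.20 in tree 13, 0.910 to 3.90 in tree 14 and 3.32 to 6.65 in tree 4, with medians of 0.571, 2.12 and 4.03. That of 04G127800 was 196 to 339 in tree 13, 190 to 325 in tree 14 and 63.7 to 171 in tree 4, with medians of 245, 263 and 104. For the first gene libraries of neighbouring trees overlapped while branch means did not, and for the other tree 4 stood below every library of the other trees. The log2 change for tree 4 was 1.3 ± 0.10 (SE) for 04G127600 (limma adjusted p = 2.54e-07) and -1.32 ± 0.13 for 04G127800 (adjusted p = 1.58e-06).

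The other genes higher in tree 4 with separate branch means changed less. 15G100000 (204 bases) had 87.3 ± 12.8 scaled TPM in tree 13, 108 ± 9.64 in tree 14 and 137 ± 13 in tree 4 (SD, n = 5), a log2 change of 0.49. 01G292400 (210 bases), which lies within 01G292300 on the opposite strand (mean 7.22 TPM), was at 40.6, 43.2 and 54.6 scaled TPM, a log2 change of 0.38. 09G074800 was near 1 scaled TPM in tree 4, with a log2 change of 0.38. 01G226400 had branch means of 0.407, 0.571 and 1.26 scaled TPM, and its log2 difference of 0.61 is only described because it passed the filter through tree 4. The call of 09G074800 was lost without replicate 1 (limma adjusted p = 0.0536).

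Among the lower genes, 09G095900 had the largest change. It spans 207 bases on chromosome 9 (9377990 to 9378196, plus strand), and its scaled TPM was 16.7 to 39.1 in tree 13 (median 25), 14.4 to 36.4 in tree 14 (median 27.2) and 1.77 to 16.7 in tree 4 (median 6.0). A single library of tree 4 reached the lowest libraries of the other trees, and branch means were separate at 2.27 to 12.2 in tree 4 against at least 18.2 elsewhere. On the log2 scale the change amounted to -2.06 ± 0.25 (SE) with adjusted p = 1.95e-05 in limma.

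01G208300, 390 bases on chromosome 1 (26119220 to 26119609, minus strand), had 19.6 to 40.8 scaled TPM in tree 13, 24.6 to 39.1 in tree 14 and 5.19 to 18.3 in tree 4, with no overlap between tree 4 and the others. limma gave it -1.52 ± 0.15 (SE) on the log2 scale, with adjusted p = 1.59e-06. 14G077900, 240 bases on chromosome 14 (6141393 to 6141632, minus strand), had medians of 644, 477 and 197 scaled TPM in trees 13, 14 and 4. Its highest library in tree 4, at 244, was below its lowest elsewhere, at 343. In limma this was a log2 difference of -1.41 ± 0.08 (SE) at adjusted p = 1.57e-08.

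14G161100, 282 bases on chromosome 14 (16629924 to 16630205, minus strand), and 02G204300, 264 bases on chromosome 2 (21813508 to 21813771, plus strand), were ordered from tree 13 through tree 14 to tree 4. Branch means of 14G161100 were 30.1 ± 2.19, 19.7 ± 3.69 and 7.98 ± 2.17 scaled TPM (SD, n = 5). Those of 02G204300 were 4.00 ± 0.235, 1.62 ± 0.199 and 0.639 ± 0.310. Branch means of the 3 trees were separate for both genes, and the log2 changes for tree 4 were -1.56 ± 0.13 and -1.14 ± 0.08 (SE, limma adjusted p = 3.64e-07 and 1.19e-07).

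Strongly expressed very short genes were more often called lower than higher in tree 4, as were strongly expressed genes of any span. Of the 38 with a mean of at least 100 TPM, 4 were higher and 21 lower (65.8% called, against 53.0% of the 1531 genes at that level, of which 113 were higher and 698 lower). For the very short genes the numbers were 5 and 15 with TPM as deposited and 7 and 15 with quantile normalization. Those of all genes at this level are not given for these settings. From 10 to 100 TPM, 12 were higher and 36 lower of 102 (47.1% called, against 40.6% of all genes at that level, 1440 higher and 2256 lower). From 1 to 10 TPM 18 were higher and 19 lower of 155 (23.9%, against 32.6% of all genes, 2404 higher and 1421 lower). Genes of a lower mean could pass the filter through the tree where they were high, so their calls are not split by direction here. The totals by direction in the comparisons of trees include them.

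Of the 10 most abundant genes, 5 were lower in tree 4. 08G143700 fell from 1834 ± 275 scaled TPM in tree 13 and 906 ± 299 in tree 14 to 401 ± 196 in tree 4 (SD, n = 5), or -1.78 ± 0.24 (SE) on the log2 scale with adjusted p = 5.68e-05 in limma. Branch 4.1, at 725, overlapped the lowest branches of tree 14, at 603 and 660. 13G122700 was at 5098 ± 647, 3915 ± 791 and 2907 ± 1159 scaled TPM, and the branches of tree 4 ran from 1515 to 4436 and overlapped both other trees. The fitted log2 difference was -0.72 ± 0.21 (SE; adjusted p = 0.0129, limma). The call of 13G122700 was lost with quantile normalization and without replicate 1, at adjusted p up to 0.181. The remaining 3 were 18G013100, 06G163100 and 01G351300, with log2 changes of -0.34, -0.38 and -0.23, and none of these was called with unscaled TPM. That of 01G351300 was lost in 18 of 28 alternatives. For 11G099800 the values were 447, 466 and 465 scaled TPM in trees 13, 14 and 4, and for 05G002100 they were 452, 502 and 477. The branches of the 3 trees overlapped for both, and neither gene passed the test.

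**Figure D4:**
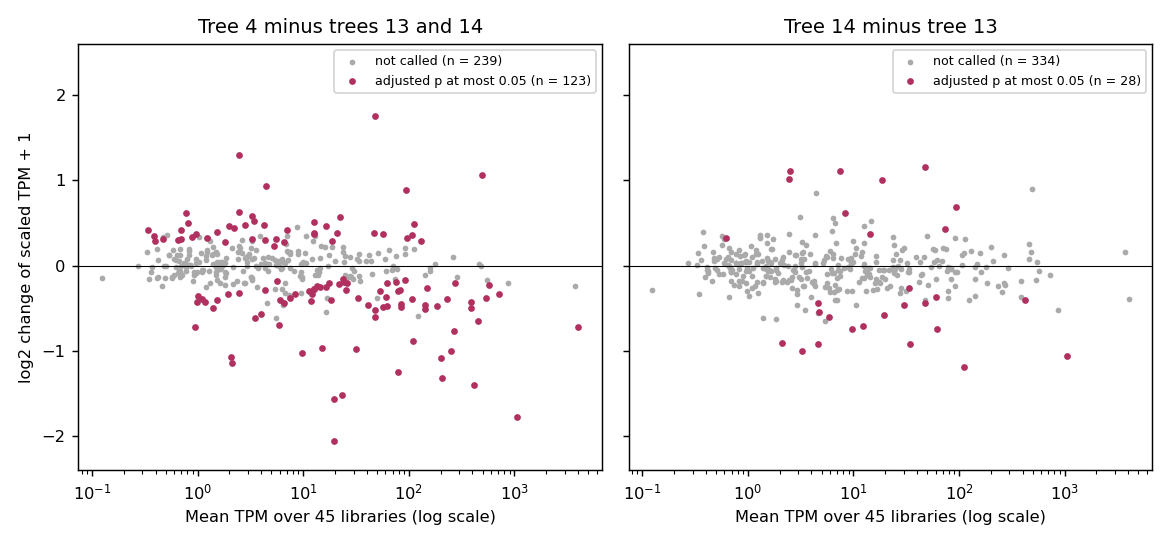
Change on the scale of log2(scaled TPM + 1) for tree 4 against trees 13 and 14 (left) and for tree 14 against tree 13 (right), by mean TPM (log scale), for the 362 tested very short genes. Coloured points are called at an adjusted p of at most 0.05 (123 left, 28 right), and among genes of at least 100 TPM 21 points called on the left lie below 0 and 4 above. With TPM as deposited the calls on the left were 72 above and 42 below 0 in all, and the median change of all genes tested was then 0.11.

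Trees 13 and 14 were then compared, as stems of 1 individual by the study's text. limma called 28 of the 362 genes (7.73%, against 8.18% of all genes tested), a share near the background. Of these, 10 were higher in tree 14 (2.76%, against 4.61%) and 18 were lower (4.97%, against 3.57%). Unscaled TPM gave 7 higher and 27 lower genes, and the median of all genes moved by -0.11 on the log2 scale. Counts of all genes by direction are not given for this setting. Branch means were separate for 23 genes (6.35%, against 8.63% of all genes). The number called fell to 16 without branch 13.2 and to 18 without 14.3, 14.4 or 14.5. Changes of at least 1 on the log2 scale were called for 7 genes (1.93%, against 0.283% of all genes tested), 5 higher (1.38%, against 0.175%) and 2 lower (0.552%, against 0.108%).

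08G060900 and 04G127600 were also among the higher genes of this comparison, with log2 changes of 1.16 ± 0.13 and 1.01 ± 0.12 (SE, limma adjusted p = 1.19e-04 and 1.66e-04). Both comparisons use the libraries of trees 13 and 14. 08G091400, 195 bases on chromosome 8 (6454204 to 6454398, plus strand), had 2.24 to 6.50 scaled TPM in tree 13 (median 4.07), 7.22 to 16.9 in tree 14 (median 11) and 5.96 to 10.7 in tree 4 (median 7.16). Tree 14 stood above every library of tree 13 and overlapped tree 4. On the log2 scale the change amounted to 1.12 ± 0.14 (SE) with adjusted p = 2.13e-04 in limma. The gene lies within 08G091300, which had a mean of 1.28 TPM.

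17G093500, 144 bases on chromosome 17 (12485069 to 12485212, minus strand), had 7.62 to 15 scaled TPM in tree 13 (median 11), 14.9 to 32.7 in tree 14 (median 24.9) and 14.8 to 23.9 in tree 4 (median 20.1). The highest libraries of tree 13 reached the lowest of tree 14, and branch means were separate. limma gave it 1.0 ± 0.10 (SE) on the log2 scale, with adjusted p = 5.41e-05. 04G031200 changed by 0.38, and its call was lost with unscaled TPM and without branch 13.2, branch 14.5 or replicate 2. 02G188500 changed by 0.69, and its call was lost in 16 of 23 alternatives, among them the omission of each branch of trees 13 and 14 except 14.1.

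The largest fall in tree 14 was that of 15G000500, 291 bases on chromosome 15 (34683 to 34973, plus strand). Its scaled TPM was 142 to 219 in tree 13 (median 176), 59.2 to 111 in tree 14 (median 74.3) and 29.7 to 98.6 in tree 4 (median 67.9). Tree 13 stood above every library of the other trees. In limma this was a log2 difference of -1.19 ± 0.20 (SE) at adjusted p = 0.00231.

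07G074200, 340 bases on chromosome 7 (9980304 to 9980643, minus strand), had branch means of 4.39 ± 1.26 scaled TPM in tree 13, 1.61 ± 0.297 in tree 14 and 3.49 ± 0.498 in tree 4 (SD, n = 5), so tree 14 alone was low. The fitted log2 difference was -1.0 ± 0.15 (SE; adjusted p = 9.34e-04, limma). 08G143700 was lower in tree 14 by a log2 change of -1.07 ± 0.28 (adjusted p = 0.0297), and this call was lost without branch 13.1, 13.2, 14.3, 14.4 or 14.5 or replicate 1, with adjusted p up to 0.0856. 02G185700, 16G090700 and 02G204300 changed by -0.93, -0.92 and -0.91. Without replicate 1 the calls of 02G185700 and 16G090700 were lost (limma adjusted p = 0.0614 and 0.104), and that of 16G090700 was also lost without branch 14.3 or 14.4.

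**Figure D5:**
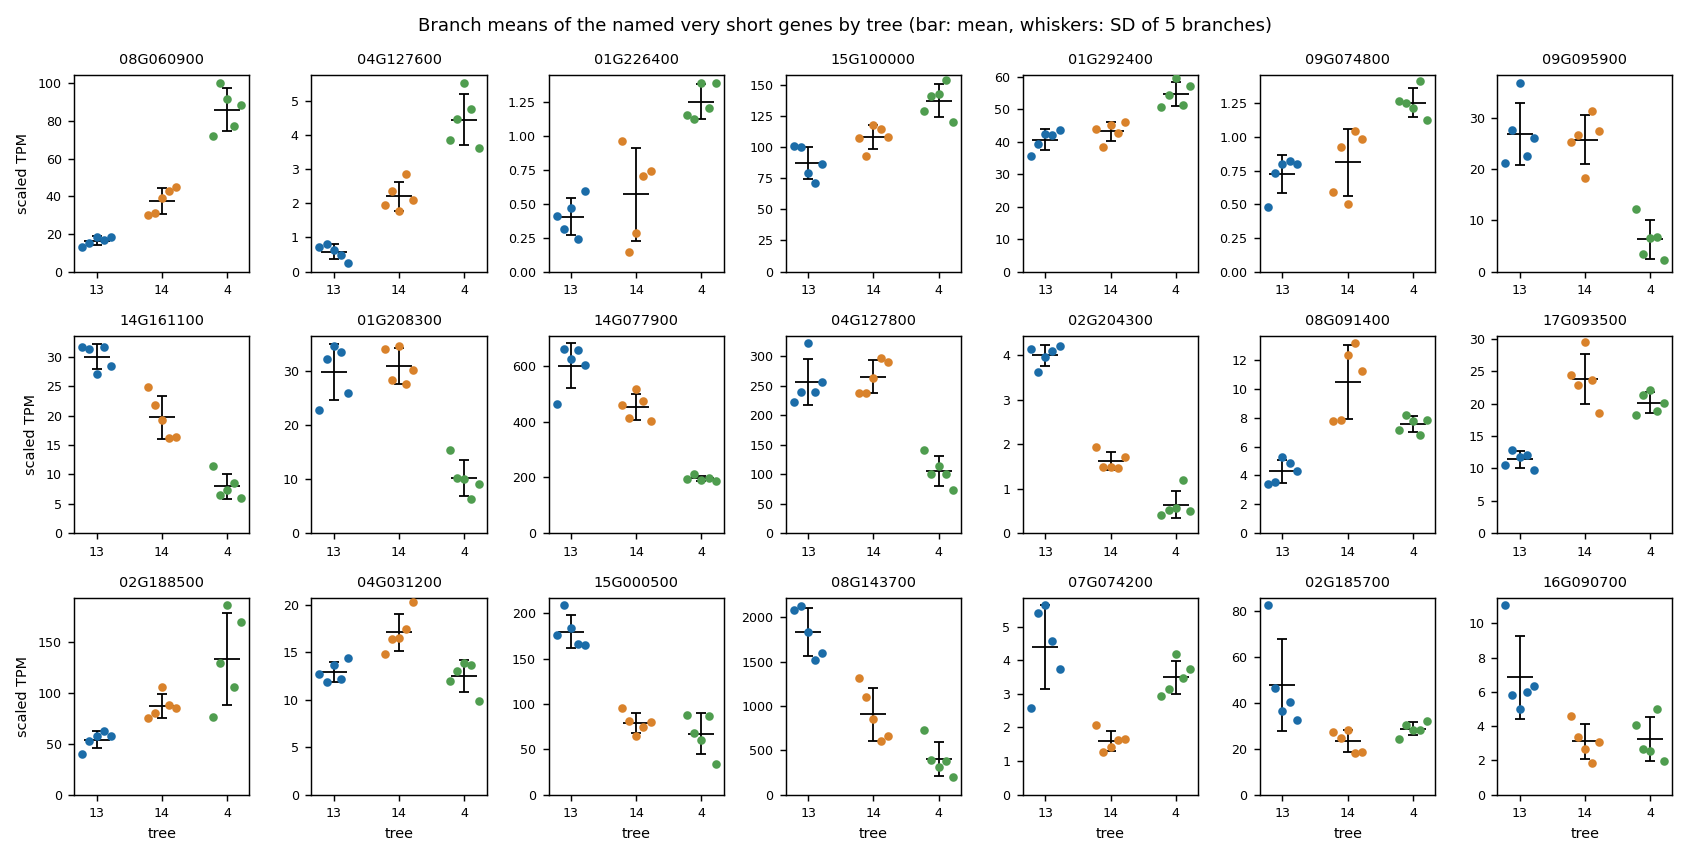
Branch means of scaled TPM in trees 13, 14 and 4 for 21 very short genes named by the tree comparisons, with 5 points per tree, a bar at the mean and whiskers of 1 SD. 08G060900 rises from 16.3 to 37.6 to 85.9, 04G127800 is low in tree 4 alone at 106, and 07G074200 is low in tree 14 alone at 1.61.

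The 8 branches of trees 13 and 14 that the study analysed were compared in pairs to ask how far these genes differ between branches. The calls needed a log2 change of 1 or more in either direction with adjusted p up to 0.01 (limma on 24 libraries). P-values for pairs measure the spread between libraries of a branch, technical replicates by the study's Methods. They do not measure the spread between separate samples of a branch. Of the 338 very short genes tested, 47 were called in at least 1 of 28 pairs (13.9%), against 5.56% of the 23393 genes tested. The share of very short genes called was above that of all genes in 23 pairs. The number called was 28 without branch 13.1, which also removes 7 pairs. The share of all genes called without this branch is not given here. Branches 13.1 and 14.4 differed most, with 35 very short genes called (10.4%, against 4.21% of all genes, also the highest share of any pair). In branch 14.4, 16 of these stood higher and 19 lower. No very short gene was called in the 4 pairs 14.2 and 14.5, 14.3 and 14.4, 14.3 and 14.5, and 14.4 and 14.5, where 76, 4, 4 and 1 of all genes were.

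Pairs across the stems held more calls than pairs within a stem, for the very short genes as for all genes. The 16 pairs across had 4 to 35 very short genes called, with a mean of 12.8, and the 12 pairs within had 0 to 16, with a mean of 3.50. As mean shares this was 3.77% across and 1.03% within, against 1.31% and 0.355% of all genes tested. Of the 47 genes, 7 were called in 1 pair, 26 in 2 to 6 pairs and 14 in at least 7 pairs.

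The genes called in most pairs were 15G000500 (16 pairs), 08G060900 and 08G091400 (13 each), 04G116300 (12) and 08G143700 (11). 15G000500 was at 196, 211 and 219 scaled TPM in the libraries of branch 13.2 and at 67.0, 62.8 and 64.0 in those of 14.3. The libraries did not overlap, and the log2 change was -1.68 ± 0.15 (SE, limma adjusted p = 2.17e-07). 04G116300, 255 bases on chromosome 4 (14979125 to 14979379, plus strand), was at 1.39, 1.49 and 0.493 scaled TPM in branch 13.1 and at 6.6, 5.04 and 4.31 in 14.3. On the log2 scale the change amounted to 1.59 ± 0.22 (SE) with adjusted p = 9.82e-06 in limma.

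Variation was divided between trees, branches of a tree and libraries of a branch. Over the 362 tested genes the median share was 11.8% for trees, 12% for branches and 67.1% for libraries, against 19.0%, 14.9% and 54.1% over all 24009 genes. The trees held over 50% of the variance in 49 of the very short genes and the branches in 29, while the libraries held over 50% in 242. The median library share was 76.5% at 1 to 5 scaled TPM (64.0% for all genes at that level), 55.6% at 5 to 20 (53.3%), 49.7% at 20 to 100 (41.6%) and 26.2% from 100 up (30.9%).

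Single genes lay at both ends of this range. The trees held 94.7% of the variance of 08G060900, 92.6% of that of 14G077900 and 88.3% of that of 04G127600. In 03G087500, 07G105000 and 11G089200 the libraries held 100%, at mean levels of 7.44, 6.38 and 6.16 TPM. A share of 100% means that the estimates for trees and branches were not above 0, not that branch means were equal. The branch means of 07G105000 were 6.0 ± 0.530, 6.35 ± 0.944 and 6.32 ± 0.787 scaled TPM (SD, n = 5) in trees 13, 14 and 4.

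Genes just inside and just outside the limits are given as a description. At 400 bases 07G033500 (mean 0.331 TPM) was inside, and at 401 bases 17G100600 (97.1 TPM) was outside. 07G055600 was above 0 in 3 libraries, up to 0.606 TPM, and 04G054600 in 2, up to 0.425 TPM. For the correlation with 13G139500, T002700 was inside at r = 0.498 (mean 0.0390 TPM) and 02G121600 outside at r = 0.515 (mean 0.0396 TPM).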

How the data were processed

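Per the study's methods and the labels, the authors trimmed reads with Trimmomatic 0.36, aligned them with HISAT2 2.1.0 and estimated TPM and FPKM of reference transcripts with StringTie 1.3.4d. The authors deposited FPKM and TPM, not counts, for 34700 genes in each of 45 libraries.

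TPM was divided by median-of-ratios factors over the 25014 genes above 0 in every library (0.506 to 1.29). Genes of at least 1 deposited TPM in at least 3 libraries were tested as log2(scaled TPM + 1) with limma 3.58.1 (R 4.3.3; trend, two-sided, Benjamini-Hochberg over all genes tested), trees on 15 branch means and pairs on 24 libraries. Depth was recovered from steps of FPKM multiplied by span. Python 3.11.15, numpy 2.4.6 and pandas 2.3.3 did the rest. The fits were also run on simulated data with normal noise and with changes placed only in more strongly expressed genes. That run does not cover the weakly expressed very short genes.

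Named genes were the 10 of highest median TPM, the 6 largest called changes in each direction per tree comparison with separate branch means, the 5 called in most pairs, equal-span pairs (r above 0.9), the 3 shortest, the 3 of largest library share at a mean of at least 5 TPM, genes at 0 in a whole tree, and genes at the limits. The genes and lists were chosen with earlier results of these data known. Alternatives covered scaling, pseudocount, filter, thresholds, omitted branches and replicates, and a replicate block. Branches 13.4 and 14.1, which the study left out for lack of an age, entered the tree comparisons.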

Additional observations from a re-analysis of the deposited data

Results flagged for a closer look

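In 4 of 69 groups of 5 branches, 1 branch mean of a named gene stood far from the others. Chance flags about 1 in 20 such groups. Branch 13.1 was low in tree 13 for 09G074800, at 0.481 scaled TPM against 0.736 in the nearest branch. It was high in tree 13 for 02G185700, at 82.5 against 46.2, and for 16G090700, at 11 against 6.34. Branch 4.4 was high in tree 4 for 02G204300, at 1.18 against 0.573.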

How the results depend on the processing

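Of 913 alternative values, 847 kept their direction and their side of the threshold or stayed close, 12 moved, 54 were no longer past the threshold and 0 reversed. Numbers of genes called were compared only by their total, not by direction. The turn of the balance between higher and lower tree 4 calls with unscaled TPM is therefore not counted as reversed. Tree 4 calls were 77 at a span of up to 300 bases, 90 to 108 with a replicate number left out and 96 to 128 with a branch left out. Tree 14 calls were 19 to 27 with a replicate number left out and 16 to 37 with a branch left out. Pair calls were 46 to 56 and 28 to 48 in the same way, and 107 over the pairs of all 15 branches. Leaving out a branch also removes its pairs, and all 15 branches form more pairs, so these counts are not on a like basis. The shares of all genes called are not given for these settings, so the counts do not compare very short genes with the background. Without 14.1 replicate 3, an alternative chosen after seeing the data, as was leaving out branches in the pairs, tree calls were 117 and 32. The number of genes was 376 at up to 300 bases and 362 at 1 TPM or more in 3 libraries. Genes with an equal-span partner that varied with them numbered 17 at r above 0.8. The detection excess of tree 4 was 7.93 at 1 TPM and 4.29 at equal fragments (5.74 without 14.1 replicate 3). The causes were not tested, except that fewer genes are counted at shorter spans and stricter limits.

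With the replicate block the pairs had 46 calls, and with a branch random effect the trees had 125 and 39 (125 and 41 without the block). Same-numbered libraries of different branches had a median r of 0.01 in their deviations from branch means (-0.55 to 0.62 over 315 pairs), so the numbers were not taken to pair samples.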
